A study of Mus musculus with 8 samples.

Results

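The 10 genes Dnmt1, Dnmt3a, Dnmt3b, Dnmt3l, Tet1, Tet2, Tet3, Uhrf1, Mbd1 and Tdg encode the enzymes and binding proteins that write, copy, oxidise, excise and read 5-methylcytosine. Their own DNA methylation was examined in nephron progenitors, the Six2-expressing stem cells of the embryonic kidney, with RRBS (reduced representation bisulfite sequencing), in which a restriction digest enriches CpG-dense fragments before conversion. A CpG was taken as a member if it lay in 1 of these genes or within 5 kb of either end (coordinates of mm10) and had at least 10 reads, both strands added, in all 8 libraries. This gave 395 of 441994 autosomal CpGs, and 30 of the 36513 tiles, which are fixed stretches of 1 kb with at least 3 such CpGs. Many CpGs with reads in some library fell short of this: in Dnmt3a 57 of 500 were shared, in Dnmt3l 9 of 78 and in Tdg 39 of 94.

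All embryos came from Six2 Cre+/tg males of the line Tg(Six2-EGFP/cre) crossed to wild-type CD1 females, an outbred stock, and were heterozygous for the transgene, so both groups carry it and its Six2 promoter drives the GFP used for sorting. The cells were taken at E17.5 from embryos of both sexes. In the restricted group (4 libraries) the dams received 70% of the average daily food intake during pregnancy, and in the unrestricted group (4 libraries) food was not limited. The comparison asks whether maternal calorie restriction was accompanied by other methylation levels at these genes. Whether each library is 1 litter or a pool is not given in the labels, so a p-value here refers to libraries alone, whose spread may be technical. In the logistic test used below, the scatter of libraries beyond read counting (dispersion) is kept from falling under 1. Where it sits at 1, as in many units near 0%, the p-value rests on read counting and not on library spread.

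Methylation of CpGs is set by the de novo methyltransferases Dnmt3a and Dnmt3b, with Dnmt3l as a catalytically inactive partner, and is copied at replication by Dnmt1, which Uhrf1 brings to hemimethylated DNA. Tet1, Tet2 and Tet3 oxidise 5-methylcytosine, Tdg removes the most oxidised forms through base excision repair, and Mbd1 binds methylated CpGs. Promoters in CpG-dense DNA are usually unmethylated whether or not the gene is active, whereas gene bodies of expressed genes are usually methylated.

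Libraries held 16045992 to 37305007 reads over CpG cytosines, and a shared CpG had a median of 20 to 44 reads per library. Restricted libraries 1 and 2 had more of their reads on unmethylated CpGs, with a read-weighted minus an unweighted mean of -2.24 and -3.28 percentage points, against -0.575 to 0.817 in the other 6. At CpGs of the mitochondrial genome, where methylation is normally absent, 0.0221 to 0.0854% of reads per library carried a methylated call. At gene ends, 7 of 13 autosomal nephron progenitor markers had 8 measured windows, which all lay under 20% (highest 6.99%). So did the windows of stroma (5 in 5 of 8 markers), ureteric bud (4 in 4 of 8), endothelium (3 in 2 of 8) and podocytes (3 in 3 of 6). Blood markers had 0 measured windows. These levels do not tell the cell types apart.

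Several of these genes have alternative starts, and CpG density differs between them. The 300 bases from 250 before to 50 after a start were taken from RefSeq (build GRCm38.p6, the coordinates of mm10) for 9 of the 10 genes, without Mbd1. They are shown for the starts of Dnmt1, Dnmt3a and Dnmt3l, genes with 3 RefSeq starts each, in the direction of transcription and with each CpG in capitals (the motif CG, which reads the same on both strands).
Dnmt1, first start, chr9:20959839-20960138, - strand: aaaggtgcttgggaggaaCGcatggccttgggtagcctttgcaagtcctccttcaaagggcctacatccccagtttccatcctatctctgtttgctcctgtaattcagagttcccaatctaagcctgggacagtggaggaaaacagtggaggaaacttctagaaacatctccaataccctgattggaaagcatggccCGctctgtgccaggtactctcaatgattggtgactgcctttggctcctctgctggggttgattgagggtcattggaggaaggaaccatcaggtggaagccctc
Dnmt1, last of its 3 starts, chr9:20952574-20952873, - strand: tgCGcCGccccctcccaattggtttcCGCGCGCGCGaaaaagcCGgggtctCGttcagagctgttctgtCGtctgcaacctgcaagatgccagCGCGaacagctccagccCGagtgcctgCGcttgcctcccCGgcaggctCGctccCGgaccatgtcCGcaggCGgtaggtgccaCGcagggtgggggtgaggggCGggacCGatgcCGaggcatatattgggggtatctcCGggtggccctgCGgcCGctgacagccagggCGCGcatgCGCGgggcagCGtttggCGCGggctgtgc
Dnmt3a, second of its 3 starts, chr12:3806910-3807209, + strand: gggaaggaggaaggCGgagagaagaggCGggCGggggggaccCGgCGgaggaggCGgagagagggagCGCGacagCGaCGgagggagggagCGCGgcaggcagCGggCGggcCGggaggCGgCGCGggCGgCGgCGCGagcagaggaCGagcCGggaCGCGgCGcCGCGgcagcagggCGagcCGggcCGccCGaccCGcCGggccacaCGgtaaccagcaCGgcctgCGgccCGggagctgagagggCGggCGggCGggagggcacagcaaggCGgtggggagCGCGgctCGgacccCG
Dnmt3a, last start, chr12:3891494-3891793, + strand: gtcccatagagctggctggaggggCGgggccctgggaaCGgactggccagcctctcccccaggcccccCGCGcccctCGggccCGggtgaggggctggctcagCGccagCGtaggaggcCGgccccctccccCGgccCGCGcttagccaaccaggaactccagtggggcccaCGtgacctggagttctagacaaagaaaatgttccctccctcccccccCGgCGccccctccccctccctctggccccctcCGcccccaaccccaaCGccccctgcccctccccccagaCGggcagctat
Dnmt3l, first of its 3 starts, chr10:78042037-78042336, + strand: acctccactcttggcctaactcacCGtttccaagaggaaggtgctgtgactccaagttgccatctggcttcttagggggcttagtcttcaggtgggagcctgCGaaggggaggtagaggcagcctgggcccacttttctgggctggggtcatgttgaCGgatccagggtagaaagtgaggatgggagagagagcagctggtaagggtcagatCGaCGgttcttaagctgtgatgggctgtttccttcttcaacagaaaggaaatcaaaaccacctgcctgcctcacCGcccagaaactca
The first start of Dnmt1 has 2 CpGs in its 300 bases and the last has 33. At least 2 CpGs are found in 86.2% of all start sequences in the table, and at least 33 in 8.84%. The sequences of Dnmt3a hold 47 (at least as many in 1.49% of starts) and 18 (30.3%), and that of Dnmt3l holds 6 (56.8%). Over all starts with at least 3 shared CpGs nearby, the share of windows (1000 bp before to 500 bp after the start) under 20% methylation was 66.3% with 0 to 4 CpGs in the 300 bases, 89.5% with 5 to 14 and 99.2% with 15 or more.

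Of the 395 CpGs, 344 had a mean level under 20%, 13 lay at 20 to 80% and 38 above 80%. The levels below are means over the CpGs of a cluster (neighbours at most 300 bp apart) in each library, then the mean ± SD of the 4 libraries of a group. Read numbers add the reads of each CpG, so a read over several CpGs counts several times.

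**Figure D1:**
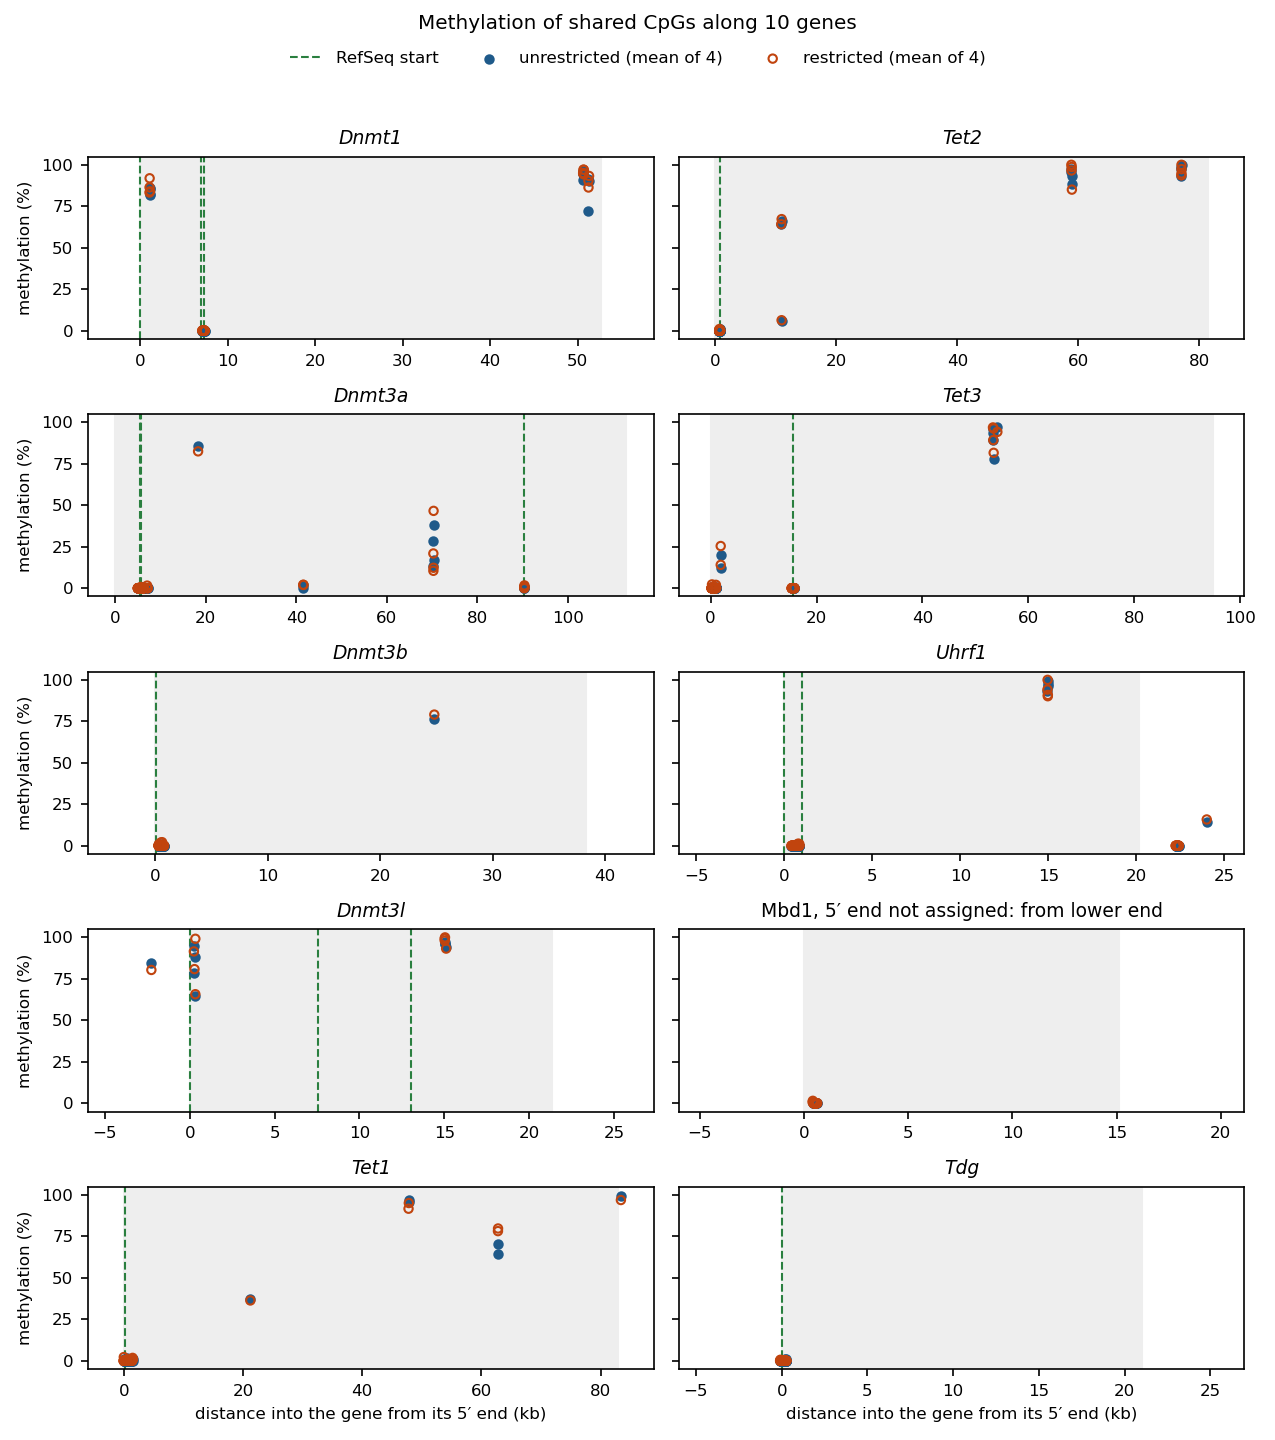
Methylation (%) of each shared CpG against its distance in kb from the 5′ end of the gene (for Mbd1, from the end of lower coordinate), with group means of 4 restricted (open circles) and 4 unrestricted libraries (filled circles). Grey marks the gene, dashed lines mark RefSeq starts, and CpGs beside most measured starts lie near 0%. Those of Dnmt3l lie above 60%, as do those 1037 to 1102 bp inside the first start of Dnmt1, which was not itself measured.

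The maintenance genes had unmethylated CpG-dense starts and methylated bodies. In Dnmt1 (chromosome 9, 20907206 to 20959888, minus strand), 19 CpGs at 20952543 to 20952822 lay beside the later starts 20952623 and 20952979. They had 0 methylated of 2158 reads in the restricted group and 1 of 2595 in the unrestricted group. With independent counts 0 of 2158 would allow up to 0.139%. Reads over several CpGs count several times, so the true limit is higher. By contrast 4 CpGs lying 1037 to 1102 bp inside the first start (20959888) were at 87.2, 87.4, 85.7 and 85.3% in restricted libraries 1 to 4 and at 86.6, 81.7, 85.7 and 81.2% in the unrestricted ones. The groups overlap there, and their means were 86.4% ± 1.03 and 83.8% ± 2.72. Dnmt1 is known for alternative first exons, including an oocyte-specific one upstream of the somatic promoter. No shared CpG lay closer to the first start, so its own 300 bases were not measured.

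Near the far end of Dnmt1, 3 CpGs at 20908584 to 20908655 were at 83.3, 94.6, 91.3 and 90.7% in the restricted libraries and at 88.6, 78.6, 86.1 and 85.3% in the unrestricted ones. Their tile had the largest diet difference of all member tiles, 5.32 points, in the moderated logistic test with adjusted p = 0.773. The 5 CpGs beside them, from 20909183, averaged 95.7% ± 2.21 and 93.1% ± 3.67. All 31 shared CpGs lie inside the gene and outside its end windows, among them the 19 near 0% beside the later starts. Over these 31 the mean was 35.3% ± 0.486 in the restricted and 34.0% ± 0.851 in the unrestricted group. By limma the adjusted p of this difference was 0.871, and by the logistic model, which pools reads, it was 0.992. Restricted libraries lay at 34.6 to 35.6% and unrestricted ones at 32.8 to 34.8%, so the groups overlap.

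Uhrf1 (chromosome 17, 56303337 to 56323486, plus strand) had 41 CpGs between its 2 starts, at least 394 bp past the first and 123 bp before the second, with 2 methylated of 4295 reads in the restricted and 1 of 5966 in the unrestricted group. Its body was methylated, with 4 CpGs from 56318288 at 94.4, 88.9, 94.7 and 97.2% under restriction and 98.9, 97.4, 95.1 and 95% without it. The means were 93.8% ± 3.51 and 96.6% ± 1.87, and the tile did not pass (adjusted p = 0.773). Within the 5 kb beyond the gene, 14 CpGs at 56325573 to 56325754 were again near 0% (0 of 1652 and 1 of 2140 reads methylated). They lie just before the neighbouring gene Kdm4b, a histone demethylase gene that begins at 56325970. Further out, inside Kdm4b, the CpG at 56327341 was at 15.8% ± 6.29 and 14.3% ± 6.23, with 20 to 69 reads per library.

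**Figure D2:**
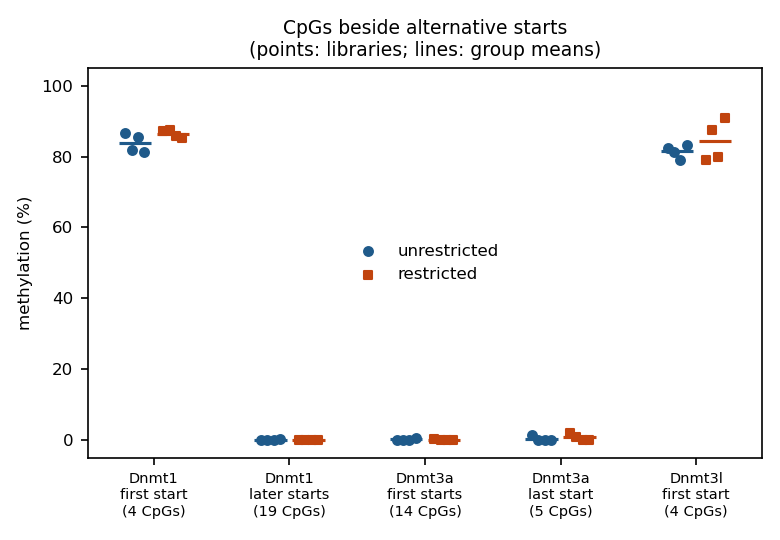
Methylation (%) of CpG clusters beside alternative starts in each of 4 restricted (squares) and 4 unrestricted libraries (circles), lines being group means. The cluster 1037 to 1102 bp inside the first Dnmt1 start and that of the first Dnmt3l start lie above 75% in every library, and the other 3 lie under 2%.

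Of the de novo genes, Dnmt3a had low levels at each measured start. In this gene (chromosome 12, 3801559 to 3914443, plus strand) 9 CpGs from 3806559 had 0 methylated of 891 and of 1311 reads. The 14 CpGs from 3807158, across the start at 3807160, had 1 of 1259 in the restricted and 2 of 1636 in the unrestricted group. Low levels reached 1588 bp past that start, and the next measured CpG, 12711 bp inside, was at 82.5% ± 3.99 and 85.8% ± 0.684. Away from any RefSeq start, 2 CpGs from 3843086, 35926 bp inside, were low again. They were at 2.03% ± 2.95 and 0.893% ± 1.79, with 42 to 84 reads per library. The last start, 3891744, lies deep inside the gene, which is known to make a shorter protein from an internal promoter. Its 5 CpGs from 3891891 were at 1.92, 0.87, 0 and 0% in the restricted and 1.43, 0, 0 and 0% in the unrestricted libraries, with 104 to 209 reads each.

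A further 4 CpGs of Dnmt3a, from 3871815 and 19929 bp before its last start, were intermediate. They were at 25.8, 10.6, 29.7 and 24.2% in the restricted libraries and at 27.4, 18.3, 29.6 and 21.5% in the unrestricted ones. The groups overlap, with means of 22.6% ± 8.29 and 24.2% ± 5.24, and restricted library 2 was lowest. Within this cluster the CpG at 3871865 averaged 46.6% ± 18.1 and 38.0% ± 15.5, whereas the CpG at 3871824 averaged 10.5% ± 9.93 and 13.2% ± 2.76.

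Dnmt3b (chromosome 2, 153649411 to 153687730, plus strand) had 32 CpGs from 248 to 734 bp past its start, at 0.190% ± 0.0768 in the restricted and 0.134% ± 0.0598 in the unrestricted group. The only other shared CpG, 24772 bp inside, varied from 66.7 to 93.8% in the restricted and from 68.2 to 83.8% in the unrestricted libraries. It had 14 to 37 reads per library.

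Dnmt3l (chromosome 10, 78042287 to 78063622, plus strand), a gene best known from germ cells, was methylated at all 9 of its shared CpGs. The 4 CpGs that lie 242 to 329 bp past its first start were at 79.2, 87.5, 79.7 and 90.9% in the restricted libraries and at 82.4, 81.2, 79.1 and 83.2% in the unrestricted ones. The groups overlap, and the start window had 84.4% ± 5.78 and 81.5% ± 1.84 with its reads pooled (adjusted p = 0.856). Of the 12116 start windows in the genome 98.8% had a level at or below this one, and it was the only one of 13 measured member windows above 1%. The 13 are not all distinct. Windows of the later Dnmt1 starts hold the same 19 CpGs, and those of the first and second Dnmt3a starts the same 23. However, 9228 of the 12116 have 15 or more CpGs in their 300 start bases, and of these 0.228% lay above 80%. With 5 to 14 CpGs, as for Dnmt3l, 3.38% did. In Dnmt3l, 4 CpGs from 1972 bp past the last start were at 97.6% ± 1.19 and 95.9% ± 1.66. The CpG 2264 bp before the first start was at 80.4% ± 9.97 and 84.4% ± 3.74.

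Single CpGs at the Dnmt3l start differed among themselves. The CpG 327 bp past the start averaged 65.8% ± 15.4 and 64.7% ± 6.55, and the one at 329 bp 99.2% ± 1.67 and 87.9% ± 4.95. The latter, at 78042616, was at 100, 100, 96.7 and 100% under restriction and at 81.1, 89.3, 88.6 and 92.9% without it, with 12 to 56 reads. All restricted libraries lay above all unrestricted ones there, and the adjusted p was 0.555 in the moderated logistic test. The groups do not overlap at 1.8% of all CpGs tested in the genome. Inside the gene the CpG at 78057330 was at 100% in each restricted library and at 91.7 to 100% in the unrestricted ones (adjusted p = 0.546, the lowest of all member CpGs).

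The Tet genes all had unmethylated starts, with wider or narrower low stretches. Around the start of Tet1 (chromosome 10, 62804570 to 62887469, minus strand) 33 CpGs averaged 0.106% ± 0.0964 and 0.0963% ± 0.0951, and 15 more CpGs, 909 to 1397 bp inside, 0.220% ± 0.332 and 0.191% ± 0.194. Body levels varied by place. The CpG 21097 bp inside was at 40.6, 25.0, 63.2 and 16.7% in the restricted and at 39.4, 45.5, 25.0 and 38.5% in the unrestricted libraries. With 12 to 33 reads per library it had the widest spread of the Tet1 clusters. Further in, CpGs from 47638 bp were at 93.4% ± 5.45 and 96.3% ± 1.51.

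In a cluster of 2 further CpGs of Tet1, 62824666 and 62824681, the groups did not overlap in the mean of both CpGs. Their mean was 77.1, 89.3, 76.0 and 73.5% in the restricted libraries and 68.0, 71.1, 66.7 and 63.2% in the unrestricted ones, so that all restricted libraries were above all unrestricted ones. The means were 79.0% ± 7.03 and 67.2% ± 3.29, with 28 to 90 reads per library. The share of clusters without overlap over the genome was not computed. For single CpGs the groups do not overlap at 1.8% of all tested, and among these 2 CpGs only at the first. The first was at 79.8% ± 5.13 and 64.2% ± 6.21 (moderated logistic test, unadjusted p = 0.0280, adjusted p = 0.622), a difference of 15.6 points, and of 13.5 to 17.8 points when 1 library was left out. The unadjusted p was 0.0634 under the replicate block and 0.0665 with edgeR. It was 0.0584 and 0.0533 without restricted library 2 or 4 and 0.0894 without unrestricted library 2. The second was at 78.2% ± 11.6 and 70.3% ± 8.40, with overlapping groups and adjusted p = 0.714.

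Tet2 (chromosome 3, 133463677 to 133545136, minus strand) had 27 CpGs across its start, with 3 methylated of 4173 reads in the restricted and 3 of 4833 in the unrestricted group. Its 300 start bases hold 57 CpGs, a number that 0.156% of starts reach. A cluster of 3 CpGs 10170 to 10233 bp inside was at 44.4, 36.9, 56.0 and 46.3% under restriction and at 46.8, 46.1, 43.1 and 45.7% without it. The groups overlap, with means of 45.9% ± 7.86 and 45.4% ± 1.60. The restricted libraries spread more widely but had fewer reads, 144, 68, 75 and 108 against 156, 161, 103 and 162. The level of this cluster mixes unlike neighbours. The CpGs at 133534157 and 133534220 were at 67.2% ± 7.42 and 64.2% ± 15.4 in the restricted group, while the CpG between them, at 133534166, was at 6.30% ± 6.14 (5.65% ± 1.52 unrestricted). Deeper in the body, 2 clusters of 4 CpGs were at 93.7 to 97.2% in group means.

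In Tet3 (chromosome 6, 83362373 to 83457208, minus strand) low CpGs lay at 2 places. Around the RefSeq start at 83441678, 5 CpGs from 83441371 had 0 methylated of 1189 reads in the restricted and 1 of 1239 in the unrestricted group, and 5 CpGs from 83441852 had 0 of 674 and 0 of 865. At the outer gene end, 15054 to 15359 bp before that start, 29 CpGs had 3 methylated of 3510 and 3 of 4281 reads, although the table holds no start there. Just inside this low stretch, 2 CpGs from 83455305 were at 16.7, 28.3, 19 and 15% in the restricted and at 12.9, 14.9, 19.6 and 16.3% in the unrestricted libraries. The groups overlap (19.7% ± 5.92 and 16% ± 2.83). In the body, 4 CpGs from 37798 bp past the start averaged 91.0% ± 2.20 and 89.1% ± 3.33, and the CpG at 38627 bp 94.2% ± 4.91 and 97.2% ± 2.01. The tile of these 5 CpGs was at 91.4% ± 2.46 and 91.5% ± 2.27, with reads pooled.

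**Figure D3:**
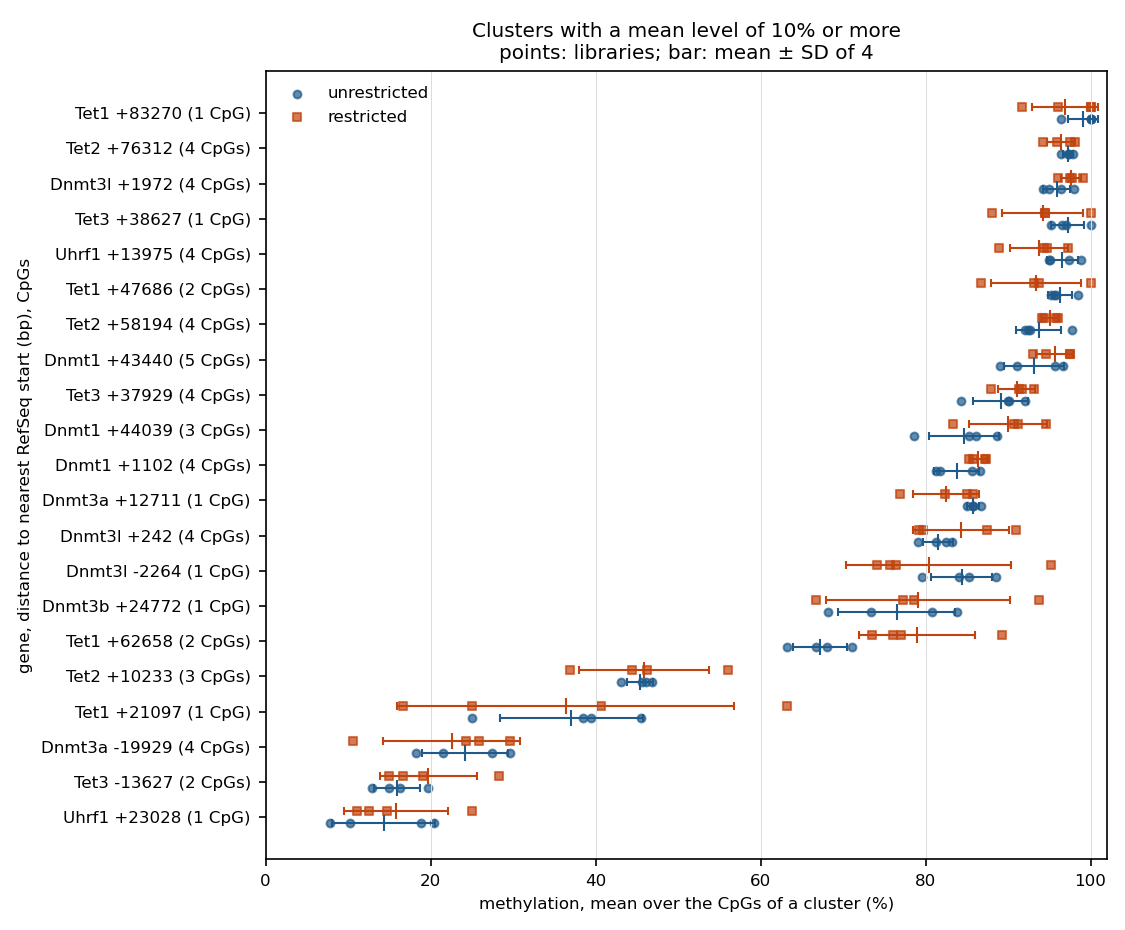
Methylation (%, mean over the CpGs) of the member clusters with a mean level of 10% or more, by gene and distance in bp to the nearest RefSeq start, in 4 restricted (squares) and 4 unrestricted libraries (circles) with mean ± SD. Only in the cluster of 2 CpGs in Tet1, at +62658, do all restricted libraries lie above all unrestricted ones among those drawn.

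The excision gene Tdg and the reader gene Mbd1 were measured at 1 place each. All 39 shared CpGs of Tdg (chromosome 10, 82629814 to 82650799, plus strand) lay from 121 bp before to 244 bp past its start. The start window was at 0.0583, 0, 0 and 0% in the restricted and at 0.0776, 0.113, 0.102 and 0.0989% in the unrestricted libraries. The groups do not overlap, as in 1.53% of all start windows tested and 1.64% of all gene-end windows, but they differ by few reads: 1 methylated of 4340 against 5 of 5045 (adjusted p = 0.665). In Mbd1 (chromosome 18, 74267605 to 74282737), whose strand and starts were not available here, 19 CpGs lay 415 to 637 bp inside the end of lower coordinate. They had 2 methylated of 1303 reads in the restricted and 0 of 1645 in the unrestricted group. With independent counts 0 of 1645 would allow up to 0.182%, and the true limit is higher. The Mbd1 tile had the smallest unadjusted p of the member tiles in the moderated logistic test (0.0894, adjusted p = 0.773). Neither gene had a shared CpG outside these clusters.

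No difference between the diet groups passed the test at these genes. A unit was called at an adjusted p under 0.05 (Benjamini-Hochberg over the genome), and a unit needed at least 1 methylated and 1 unmethylated read to be tested. Of the 30 member tiles 28 were tested and 0 called, against 6 of 33897 tiles in the genome (0.0177%), with 14 higher and 14 lower under restriction. At an unadjusted p under 0.05 there were 0 (6.32% of all tiles), with limma on M-values 2 (6.41%) and with edgeR 0 (5.59%), and neither tool called a member tile. In 0 member tiles did the groups not overlap (2.26% of all tiles). The median difference of the members was 0.0335 points, against -0.0116 over all tested tiles.

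**Figure D4:**
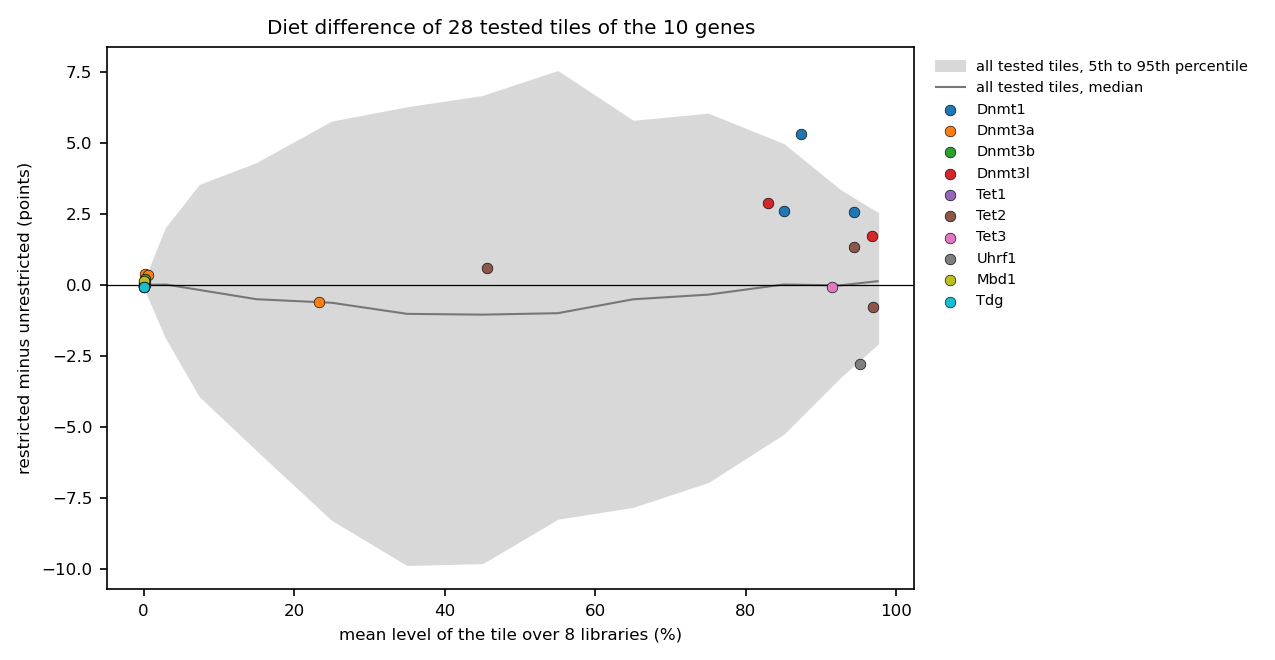
Restricted minus unrestricted methylation (percentage points) of the 28 tested member tiles against their mean level (%), with the median and the 5th to 95th percentile of all tested tiles in bands of level. Of the 28 tiles 25 lie inside the range of their band, and the largest difference, 5.32 points in Dnmt1, carries an adjusted p of 0.773.

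By gene, the tile of smallest p was that inside the first start in Dnmt1 (86.4% ± 0.980 and 83.8% ± 2.71), that of the last cluster in Dnmt3l (97.6% ± 1.19 and 95.9% ± 1.66) and the body tile in Uhrf1 given above. In Tet2 it was a body tile, 133486001 to 133487000, at 95% ± 0.986 and 93.7% ± 2.72. The others were near 0%. They were 3808001 to 3809000 in Dnmt3a (0.391% ± 0.781 and 0%), 153650001 to 153651000 in Dnmt3b (0.313% ± 0.366 and 0.121% ± 0.242), 62887001 to 62888000 in Tet1 (0.140% ± 0.102 and 0.0711% ± 0.0826), 83456001 to 83457000 in Tet3 (0.154% ± 0.120 and 0.0709% ± 0.0537) and 82630001 to 82631000 in Tdg (0% and 0.0864% ± 0.106). In Mbd1 it was the only tile, at 0.133% ± 0.157 and 0%. Adjusted p was 0.773 to 0.911 over these 10 tiles.

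Windows at gene ends (1000 bp outside and 500 bp inside) gave 0 calls among 6 tested of the members, with 9 of 11862 in the genome (0.0759%). Counts at an unadjusted p under 0.05 were 0 by the logistic model, limma and edgeR (6.95, 6.82 and 4.65% of all windows), and limma and edgeR called 0 members. The end windows of Dnmt3b (0.169% ± 0.117 and 0.172% ± 0.0658), Tet1 (0.13% ± 0.0946 and 0.0659% ± 0.0765) and Tet3 (0.0843% ± 0.127 and 0.0744% ± 0.0568) were near 0% in both groups. That of Mbd1 was at 0.302% ± 0.398 and 0%, and that of Uhrf1 was at 0% in every library and not tested. Those of Dnmt3l and Tdg held the CpGs of their start windows. Windows at RefSeq starts gave 0 calls among 12 tested, with 16 of 10891 in the genome (0.147%), and 0 at an unadjusted p under 0.05 (7.15%). These windows, some of which hold the same CpGs, were tested by the logistic model only. All measured end and start windows of the members other than those of Dnmt3l had a level under 1%. Interiors, the CpGs inside a gene and outside its end windows, mix low and high CpGs. End windows sit at the outer gene ends, so low CpGs of starts further inside count as interior. In Dnmt1, Dnmt3a and Tet2 the interior held all shared CpGs (31, 57 and 38), those of the starts included. Interior means are therefore not levels of gene bodies alone. Besides Dnmt1, interiors averaged 97.6% ± 1.19 and 95.9% ± 1.66 in Dnmt3l, 23.8% ± 0.533 and 23.7% ± 0.308 in Tet2, 19.2% ± 0.930 and 18.7% ± 0.787 in Tet3, and 11.3% ± 0.965 and 10.8% ± 0.375 in Tet1. Lower means were found in Uhrf1 (9.93% ± 0.322 and 10.2% ± 0.235), Dnmt3b (8.12% ± 1.26 and 7.73% ± 0.597) and Dnmt3a (3.20% ± 0.701 and 3.30% ± 0.329). Of 8 measured interiors limma called 0, against 0 of 11117 (0%), and only Dnmt1 had an unadjusted p under 0.05 (583 in the genome, 5.24% of all interiors). The logistic model, which pools reads, called 0 member interiors and 1 in the genome. Under it the Dnmt1 difference was 0.875 points (unadjusted p = 0.970), and Tet1 was at -2.56 points (unadjusted p = 0.00437, adjusted p = 0.221), against 0.494 points by limma.

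Of 111 tested member CpGs, 0 were called, against 191 of 191637 in the genome (0.0997%). Unadjusted p was under 0.05 for 11 of the 111 by the logistic model (5.62% of all CpGs), for 12 by limma (6.94%) and for 6 by edgeR (3.4%), and limma and edgeR called 0 members. Each is a larger share of the members than of all CpGs. This excess was not tested, and neighbouring CpGs on the same reads are not independent. The groups did not overlap at 3 member CpGs (1.8% of all CpGs tested), and all 3 were higher under restriction. Besides those of Dnmt3l and Tet1 given above, this was the CpG of Tet2 at 133486221, at 98.7% ± 1.63 and 93.3% ± 2.49 (adjusted p = 0.622).

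By class of level, the 344 member CpGs under 20% averaged 0.273% ± 0.0913 in the restricted and 0.258% ± 0.0352 in the unrestricted group, and the 38 above 80% averaged 93.5% ± 0.537 and 93.1% ± 0.600. In both classes the groups overlap. The 13 CpGs of 20 to 80% had a mean of 61.1, 60.9, 65.8 and 62.1% in the restricted libraries and of 59.0, 57.7, 58.4 and 58.3% in the unrestricted ones. They come from 7 genes, and their group means were 62.5% ± 2.27 and 58.4% ± 0.522. All 29499 CpGs of that range in the genome averaged 51.8% ± 1.12 and 52.6% ± 0.887. The largest single difference among the 13 was the Tet1 CpG at 62824666. This mean over chosen members was not tested.

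Other genes of methylation control were counted in the same way. Of 41 listed genes, among them further methyl-CpG-binding proteins, Gadd45 and base excision repair factors, 38 are autosomal in the gene table and 27 had a measured end window. Of their 28 tested windows 0 were called, against 9 of 11862 in the genome (0.0759%). By the logistic model 4 had an unadjusted p under 0.05 (all windows 6.95%). Under restriction 5 were higher and 23 lower, with a median difference of -0.0374 points, against -0.00582 over all tested windows. The window of smallest p was that of Gadd45b, a stress-induced factor linked to active demethylation. It was at 0.746, 0.852, 0.562 and 0.877% in the restricted and at 2.58, 1.5, 2.30 and 0.998% in the unrestricted libraries (adjusted p = 0.537). The groups do not overlap there, as in 1.64% of all gene-end windows tested, and this window was picked for its small p. Dppa3, which is known to protect methylated DNA in the zygote, had 81.3% ± 2.74 and 86.7% ± 3.51, and Gadd45g 0% and 0.0893% ± 0.0782 (adjusted p = 0.684 for both). Of 98 tested tiles of these genes 0 were called, against 6 of 33897 in the genome (0.0177%). By the logistic model 6 of the 98 had an unadjusted p under 0.05 (6.32% of all tiles).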

How the data were processed

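Methylation was measured by RRBS in 8 libraries of sorted nephron progenitors, 4 per diet group, grouped by the sample labels. The submitters' processing notes list Bismark 0.13.1, methylKit, Trim Galore 0.3.3, FastQC and cutadapt, as well as mm10 as the build, without their order or parameters. The authors deposited, for each CpG cytosine on its strand, a count of covering reads and the percent of them methylated and unmethylated. The product of count and percent gave the methylated reads, and up to 1000 reads it was at most 0.0488 from a whole number. Strands were added, and an autosomal CpG was kept if every library had 10 reads or more there (16045992 to 37305007 reads per library). Limits for a count of 0 use 3 reads over the summed counts, in which a read over several CpGs counts several times. They cover counting error only and are too low for the number of independent reads. PCR copies cannot be told apart.

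Tiles, gene-end windows, start windows and CpGs were fitted over the whole genome (Python 3.11.15, numpy 2.4.6, scipy 1.17.1, pandas 2.3.3) by a logistic model of the methylated share of reads with a diet term. Its likelihood-ratio F test took a dispersion moderated as in limma's squeezeVar and not under 1. Tile and window levels pool reads, and cluster levels average CpGs. Interiors were tested with limma 3.58.1 in R 4.3.3 on mean percent per library. Alternatives used limma on M-values with a pseudocount of 1, edgeR 4.0.16, other coverage, tile and window sizes, a replicate block, and fits without single libraries. Gene positions and starts came from RefSeq tables of GRCm38.p6, and all 79519 measured CpGs inside start sequences fell on a CG.

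All 10 genes are named whatever their p, each with its windows, interior, flanks and tile of smallest p where measured, and the 3 other pathway windows of smallest p. Members, lists and tests were chosen with earlier results of these data known. The start windows, the rule that interiors need a methylated and an unmethylated read, and the final form of the block fit were set after the data were seen. The models were tested on simulated data whose noise was reset until it resembled that of the real units. There the logistic test made more false calls than its threshold states, most of all for single CpGs, so counts of calls over the genome may hold more false ones. It recovered few changed CpGs, although the change put in was larger than any group difference of a member CpG. So 0 called CpGs says little about differences of that size or smaller. The units changed for the logistic test were all of intermediate level, so low and high units were not covered.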

Additional observations from a re-analysis of the deposited data

Results flagged for a closer look

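In 14 of 80 groups of 4 libraries (40 clusters in 2 diet groups), 1 library stood apart from the other 3 by a gap of more than Dixon's limit. Chance flags about 1 in 20 groups, and in 11 of the 14 the other 3 libraries were at exactly 0, where a single methylated read is enough.

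In the unrestricted group, library 4 stood apart at the later Dnmt1 starts (0.122%, 1 methylated of 720 reads), at the Dnmt3a cluster from 3807158 (0.529%, 2 of 377), at the Tet3 cluster from 83441371 (0.206%, 1 of 381) and beyond the end of Uhrf1 (0.193%, 1 of 566). Unrestricted library 1 stood apart at the last Dnmt3a start (1.43%, 2 of 139) and at the Uhrf1 starts (0.0841%, 1 of 1676). Unrestricted library 2 did so at the Dnmt3a cluster from 3843086 (3.57%, 3 of 84) and at the Tet3 cluster from 83456175 (0.337%, 1 of 305). In the restricted group, library 1 did so at the Dnmt3a cluster from 3807158 (0.210%, 1 of 475) and at the Tdg start (0.0625%, 1 of 1715), and library 4 at the Dnmt3a cluster from 3808622 (1.56%, 1 of 64). In each of these the other 3 libraries of the group were at 0.

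The other cases were at methylated CpGs. Restricted library 4 had 95.2% at the CpG 2264 bp before the first Dnmt3l start, with 20 of 21 reads methylated, against 74.1 to 76.5% in the other 3. Unrestricted library 1 had 97.8% at the Tet2 cluster from 133486196, against 92.0 to 92.7%. Unrestricted library 4 had 96.4% at the Tet1 CpG at 62804054 (27 of 28 reads), where the other 3 were at 100%.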

How the results depend on the processing

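Under each of 60 alternatives over the 4 planned kinds of unit, 0 member units were called. Of 362 values of 27 single member units, 24 changed sign, and 0 were called.

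Counts over the genome moved more. Tiles called were 6, with 2 at a coverage minimum of 20 reads, 2 at 5 reads, 0 with limma on M-values (2173 of unadjusted p under 0.05), 110 with edgeR, and 0 to 24 without 1 library. Restricted libraries 2, 3 and 4 left 1, 24 and 2 when dropped, and unrestricted libraries 2, 3 and 4 left 20, 2 and 0. Gene-end windows called were 9, with 1 under the replicate block, 3 without restricted libraries 1 and 2, 0 with limma (809 of unadjusted p under 0.05), 17 with edgeR, 16 at RefSeq starts (an alternative added after seeing the data), and 5 (without unrestricted library 1) to 31 (without restricted library 3) when 1 library was left out, with 15 without unrestricted library 2. CpGs called were 191, with 466 under the replicate block, 673 without restricted libraries 1 and 2, 103 at 20 reads, 0 with limma (13297), 92 with edgeR, and 134 to 746 without 1 library (restricted libraries 1 to 4 left 532, 511, 416 and 292, and unrestricted library 2 left 746). Interiors called were 0, and 1 with the logistic model. The cause of these shifts was not tested. The labels give no pairing by replicate number, and deviations of same-numbered libraries correlated at 0.0242, -0.0995, -0.0412 and 0.0299 over 5314 tiles; the replicate block called 5 tiles. Its dispersion prior was changed after a first version had called 0 units of every kind, and both versions called 0 members.

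Values changed sign as follows. Without restricted libraries 1 and 2 the Tet1 tile was at -0.00602 points, the Tet1 gene end at -0.00504, the Tet3 interior at -0.107 and the Dnmt3a interior at 0.178. At 20 reads the Tet1 tile was at -0.0118, the Tet3 tile at -0.231, the Tet3 gene end at -0.152, the Tet1 gene end at -0.00945, the Tet1 interior at -0.00599 and the Dnmt3a interior at 0.151. Without 1 library the Dnmt3b gene end ranged from -0.0310 to 0.0529, the Tet3 gene end from -0.0517 to 0.0379, the Dnmt3b interior from -0.144 to 0.878, the Dnmt3a interior from -0.257 to 0.251 and the Tet2 interior from -0.105 to 0.299. The logistic model, which weights CpGs by reads, gave interiors of -2.15 (Dnmt3b), -0.904 (Tet2), -3.17 (Tet3), -2.56 (Tet1; unadjusted p = 0.00437, adjusted p = 0.221) and 0.147 points (Dnmt3a).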
